A study of Mus musculus with 84 samples.

Results

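The 10 genes described here encode brakes on mitogen-activated protein (MAP) kinase signalling: the dual-specificity phosphatases Dusp1, Dusp2, Dusp4, Dusp5, Dusp6 and Dusp10, the Sprouty proteins Spry1 and Spry2, and the Sprouty-related proteins Spred1 and Spred2. They were chosen by gene name, and all 10 were found among the 55471 genes of the deposited count tables. Expression was measured in MMC9s, the IL-9-producing mucosal mast cells of the mouse small intestine, in BALB/c mice made allergic to the food antigen ovalbumin. The bulk part held 3 libraries, 1 per genotype. IL4RaY709F MMC9s carry a gain-of-function IL-4 receptor alpha chain, IL4Ra-/- MMC9s its loss of function, and WT MMC9s the unaltered receptor. In all 3 groups, bone marrow progenitors of the genotype were given to WT mice sensitized to ovalbumin, which then had 7 oral ovalbumin challenges, 3 in each week. Each RNA was pooled from 12 to 20 biological replicates. The sources used here do not give the age of the mice, the gate of the bulk sort or whether the hosts kept MMC9s of their own. The single-cell part held 81 WT MMC9s from WT mice of an ovalbumin and alum model, sorted for absence of lineage markers and IL-17RB2, low β7-integrin, high IL-4-GFP, and presence of ST2 and c-Kit. Of these cells, 80 had at least 10000 reads in genes and were kept. The labels tie no cell to an animal, so the cells are treated as 1 sample.

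MAP kinases such as ERK, p38 and JNK are switched on by phosphorylation downstream of the mast cell receptors KIT and FcεRI, and they drive cytokine transcription and growth. The DUSP phosphatases switch them off by removing those phosphates, and many Dusp genes are themselves induced by the kinases they oppose, which forms a negative feedback. Sprouty and SPRED proteins act further up, where they restrain the activation of RAS and RAF by receptor tyrosine kinases.

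The bulk libraries held 2521791 (IL4RaY709F), 2330628 (IL4Ra-/-) and 2299793 (WT) reads in genes, and the kept cells 163596 to 2210211 (median 1209300). With 1 library per genotype there was no replicate check and no test between genotypes, and every interval covers counting error only. In bulk RNA, fewer cells of a type and less RNA per cell cannot be told apart. Il4ra, the altered gene, stood at 787 CPM (reads relative to library size after TMM scaling, a trimmed mean of log ratios) in IL4RaY709F, 138 CPM in IL4Ra-/- and 353 CPM in WT. Of the 14 mast cell markers, all had reads in all 3 libraries, summing to 90352 CPM in IL4RaY709F, 60740 CPM in IL4Ra-/- and 64189 CPM in WT. Marker genes of other cell types also differed between the libraries. The 14 macrophage or monocyte markers, none of them at 0, summed to 804 CPM in IL4RaY709F, 1423 CPM in IL4Ra-/- and 871 CPM in WT, and the 11 of them with 10 reads in under 5% of the single cells to 77 CPM in IL4RaY709F, 440 CPM in IL4Ra-/- and 144 CPM in WT. The 14 epithelial markers summed to 33.1 CPM in IL4RaY709F, 97.9 CPM in IL4Ra-/- and 32.4 CPM in WT, with Lgr5 at 0 in all 3 and Krt20 and Fabp2 also at 0 in WT. The 11 B or plasma cell markers summed to 3033 CPM in IL4RaY709F, 13409 CPM in IL4Ra-/- and 6587 CPM in WT. The 10 dendritic cell markers summed to 258 CPM in IL4RaY709F, 783 CPM in IL4Ra-/- and 301 CPM in WT, and the 15 proliferation genes to 418 CPM in IL4RaY709F, 776 CPM in IL4Ra-/- and 433 CPM in WT. All these sums were highest in IL4Ra-/-. The 9 markers of ILC2 cells (type 2 innate lymphoid cells) were ordered like Dusp4, at 214 CPM in IL4RaY709F, 64.9 CPM in IL4Ra-/- and 109 CPM in WT. Il5 was at 0 in all 3, and Areg and Arg1 were also at 0 in IL4RaY709F. The 5 ILC2 markers with 10 reads in under 5% of the single cells ran in the reverse order. They summed to 3.44 CPM (8 reads) in IL4RaY709F, 10.6 CPM (27 reads) in IL4Ra-/- and 5.69 CPM (13 reads) in WT. T cell, basophil and stromal or endothelial sums were highest in IL4RaY709F and within 2-fold of WT. The basophil sum includes Fcer1a and Ms4a2, which are also on the mast cell list. Prss34, another basophil marker, was ordered like Dusp4, at 114 CPM in IL4RaY709F, 12.6 CPM in IL4Ra-/- and 44.2 CPM in WT. Of the 5 basophil markers with 50 or more reads in the larger library, 5 were above WT in IL4RaY709F. In IL4Ra-/- 3 were below WT and 2 above. On the T cell, basophil and stromal or endothelial lists, markers with 10 reads in under 5% of the single cells were ordered otherwise. The 7 such T cell markers summed to 3.44 CPM in IL4RaY709F, 17.7 CPM in IL4Ra-/- and 6.13 CPM in WT. In the same order of libraries, the 9 such stromal or endothelial markers summed to 9.03, 26.7 and 19.3 CPM. The 3 such basophil markers summed to 55.9, 37.8 and 58.2 CPM. The part of such cells in the values below was not tested.

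A pair of the promoters is shown first, because Dusp1 was the most widely detected of the genes in single cells and Dusp5 has the neighbouring boxes of the serum response factor (SRF) in front of its start site. The sequences run from 250 bases before to 50 after the RefSeq start site (GRCm38.p6), 5′ to 3′ on the gene's strand. Capitals mark, in Dusp1, the cyclic AMP response element (CRE) TGACGTCA and another TGACG outside it, and in Dusp5 the 2 CArG boxes of SRF and a TGACG on the other strand, read as CGTCA.

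Dusp1, chr17:26508423-26508722, minus strand: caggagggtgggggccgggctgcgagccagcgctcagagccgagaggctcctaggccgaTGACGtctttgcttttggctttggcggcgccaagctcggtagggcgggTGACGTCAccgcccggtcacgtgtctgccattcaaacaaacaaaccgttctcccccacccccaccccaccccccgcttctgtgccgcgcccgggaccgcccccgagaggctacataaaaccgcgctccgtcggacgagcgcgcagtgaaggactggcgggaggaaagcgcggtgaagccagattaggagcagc

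Dusp5, chr19:53528895-53529194, plus strand: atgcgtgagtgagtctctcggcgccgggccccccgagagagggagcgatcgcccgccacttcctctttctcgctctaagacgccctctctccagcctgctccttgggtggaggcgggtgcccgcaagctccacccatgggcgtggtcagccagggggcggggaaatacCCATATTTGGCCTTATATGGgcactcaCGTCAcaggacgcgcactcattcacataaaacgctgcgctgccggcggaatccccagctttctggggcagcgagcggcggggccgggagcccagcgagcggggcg

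RefSeq promoters were matched for 9 of the 10 genes, all but Dusp4. The full CRE, searched on both strands, was in 1 of the 9 (Dusp1) and in 1.79% of 32851 promoters. Its first base is at position -143 from the Dusp1 start site. TGACG, which the CRE contains, was in 4 of the 9 (Dusp1, Dusp2, Dusp5 and Spred2) and in 20.8% of all. The CArG box, added to the search after the promoters had been read, was in 1 of the 9 and in 1.63% of all, and its 2 copies in Dusp5 begin at positions -82 and -72 from the start site. None of the 9 windows held the AP-1 motif TGANTCA (7.81% of all), the STAT motif TTCNNNGAA (8.30%), the ETS motif CCGGAAG (8.86%), the EGR1 motif GCGTGGGCG (0.612%), the STAT6 motif (6.95%), or the composite motif of BATF and IRF with a spacer (0.119%) or without one (0.125%). A match is a description of these letters and not a bound site.

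Per length, the phosphatase genes Dusp1, Dusp4 and Dusp5 were the most abundant of the 10 in the bulk libraries, and Spry1 was close to absent. In WT, levels in RPKM (TMM-scaled CPM divided by exon length in kilobases) ran from Dusp1 (337) through Dusp4 (228), Dusp5 (110), Spred1 (57), Dusp6 (42.9), Dusp2 (38.7), Dusp10 (21.1), Spry2 (11.5) and Spred2 (10.4) to Spry1 (0.452). The counting intervals of neighbours overlapped for Dusp6 and Dusp2 and for Spry2 and Spred2. In IL4RaY709F the order opened with Dusp4 (449), ahead of Dusp1 (299). In IL4Ra-/- it opened with Dusp1 (326), followed by Dusp4 (88.1) and Dusp5 (80.3), whose intervals overlapped. In IL4RaY709F the intervals of all neighbours from Spred1 down to Spry2 overlapped, and in IL4Ra-/- those of Dusp2 with Dusp6, Dusp10 with Spry2 and Spry2 with Spred2.

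**Figure D1:**
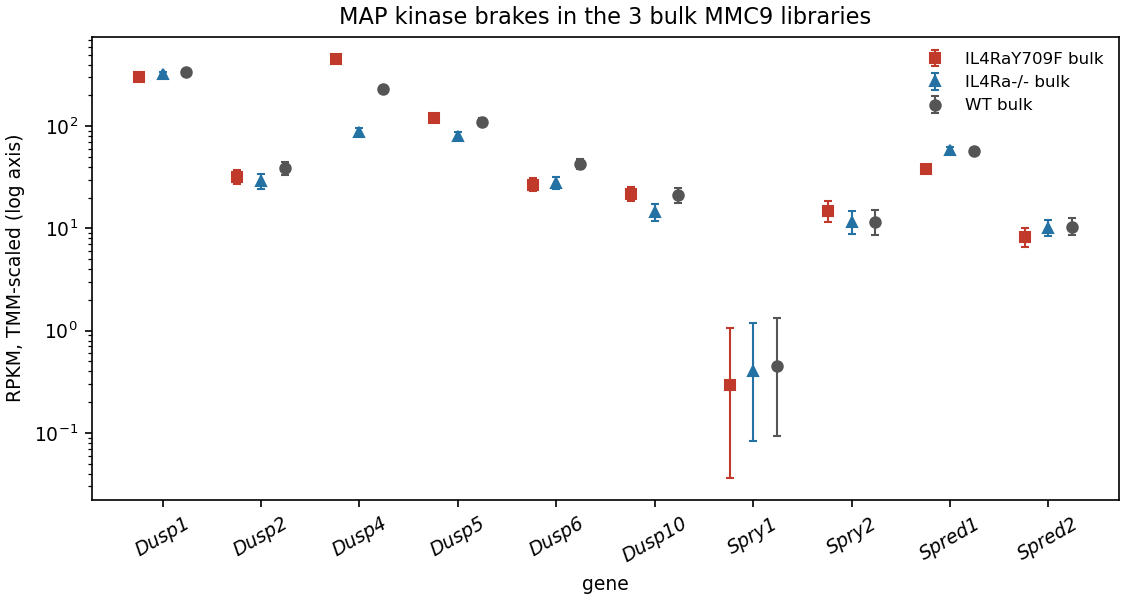
Level of each of the 10 genes in RPKM (log axis) in the IL4RaY709F (squares), IL4Ra-/- (triangles) and WT (circles) bulk libraries, with 95% counting intervals. Dusp4 is at 449 in IL4RaY709F, 88.1 in IL4Ra-/- and 228 in WT, while the 3 Dusp1 values lie between 299 and 337.

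Of the 10 genes, Dusp4 alone met the size rule, which asks for 50 reads in the larger library, a 2-fold ratio and a 95% counting interval that excludes 1. Dusp4 (ENSMUSG00000031530, GRCm38 chromosome 8, 34807297 to 34819894, plus strand) encodes a nuclear phosphatase of ERK and JNK that ERK signalling induces. It had 2860 reads (1230 CPM) in IL4RaY709F, 614 reads (241 CPM) in IL4Ra-/- and 1430 reads (626 CPM) in WT. The gain-of-function library was the highest, the loss-of-function library the lowest, and WT lay between them. Against WT, IL4RaY709F was 1.97-fold higher (1.84 to 2.10), just short of 2-fold, and 106 of 5964 tested genes (1.78%) had a ratio at least as high. IL4Ra-/- was 2.59-fold lower than WT (2.36 to 2.85), and 24 of 6246 genes (0.384%) lay at least as low. Between the mutants the ratio was 5.09-fold (4.67 to 5.57), with 33 of 6319 genes (0.522%) at least as high. The 3 comparisons share libraries, so they are not independent of each other.

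The size rule was met in IL4RaY709F against WT by 0 of the 10, beside 2.45% of all tested genes in either direction (1.68% higher, 0.771% lower), with 9 of the 10 at 50 reads or more. With the fold lowered to 1.5 it was met by 3 (Dusp4 higher, Dusp6 and Spred1 lower), beside 9.71% of all. In IL4Ra-/- against WT 1 of the 10 was lower, beside 1.3% of all lower, 2.43% higher and 3.73% in either direction. Between the mutants 1 was higher, beside 4.62% of all higher, 3.5% lower and 8.12% in either direction. Over all 10 genes the median log2 ratio was -0.23 in IL4RaY709F over WT, where all tested genes had 0.02. It was -0.29 in IL4Ra-/- over WT (all tested genes -0.08) and 0.05 in IL4RaY709F over IL4Ra-/- (all tested genes 0.09), the last turning to -0.20 with scaling by total reads. The 10 include Spry1, with 2 to 3 reads, while every tested gene has 50 or more in the larger library. Without Spry1 the TMM-scaled medians were -0.17, -0.42 and 0.14 in the order of comparisons given, the last then above that of all tested genes. Scaling by total reads shifts the 3 ratios of every gene by -0.11, 0.13 and -0.24 in the same order.

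The other nuclear phosphatases differed less than Dusp4. Dusp1 (ENSMUSG00000024190, chromosome 17, 26505590 to 26562128, minus strand), an immediate early gene whose product acts on p38, JNK and ERK, had 2302 reads in IL4RaY709F, 2742 in IL4Ra-/- and 2551 in WT. Its log2 ratio was -0.17 (-0.26 to -0.09) in IL4RaY709F and -0.05 (-0.13 to 0.03) in IL4Ra-/-, both against WT, and the sign of the second turned with total-read scaling. Exons of Dusp1 overlap exons of Ergic1 on the other strand, and no source used here gives the strand setting of the counts, so their reads could not be told apart. Dusp2 (ENSMUSG00000027368, chromosome 2, 127336159 to 127338376, plus strand), a phosphatase first known from activated lymphocytes, had 148 reads in IL4RaY709F, 147 in IL4Ra-/- and 177 in WT. WT was the highest of the 3, and the interval of the ratio to WT included 1 in IL4RaY709F (log2 -0.28, -0.61 to 0.04) and not in IL4Ra-/- (-0.42, -0.75 to -0.10).

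Dusp5 (ENSMUSG00000034765, chromosome 19, 53529109 to 53542431, plus strand), whose product inactivates ERK in the nucleus, had 691 reads in IL4RaY709F, 505 in IL4Ra-/- and 623 in WT. IL4RaY709F did not separate from WT (log2 0.12, -0.03 to 0.28), IL4Ra-/- was lower than WT beyond counting error (log2 -0.46, -0.63 to -0.29), and IL4RaY709F was above IL4Ra-/- (log2 0.58, 0.41 to 0.75). An antisense gene overlaps exons of Dusp5. Dusp10 (ENSMUSG00000039384, chromosome 1, 184013302 to 184075636, plus strand), which prefers p38 and JNK over ERK, had 153 reads in IL4RaY709F, 111 in IL4Ra-/- and 147 in WT. Its pattern was like that of Dusp5, with IL4RaY709F above IL4Ra-/- (log2 0.59, 0.23 to 0.96), IL4Ra-/- below WT (log2 -0.56, -0.93 to -0.19) and IL4RaY709F level with WT within counting error (0.03, -0.30 to 0.37).

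Dusp6, the cytoplasmic ERK phosphatase, was highest in WT. Dusp6 (ENSMUSG00000019960, chromosome 10, 99263231 to 99267489, plus strand) had 195 reads in IL4RaY709F, 220 in IL4Ra-/- and 307 in WT. It was lower than WT in both mutants, with a log2 ratio of -0.68 in IL4RaY709F (-0.95 to -0.42) and -0.63 in IL4Ra-/- (-0.89 to -0.38). Both ratios use the same WT library. The mutants did not separate from each other (log2 -0.05, -0.33 to 0.24).

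Among the upstream inhibitors Spred1 was the 1 with a ratio outside counting error. Spred1 (ENSMUSG00000027351, chromosome 2, 117121374 to 117182279, plus strand), which brings the RAS inactivator neurofibromin to the membrane, had 599 reads in IL4RaY709F, 1017 in IL4Ra-/- and 883 in WT. It was lower in IL4RaY709F than in WT (log2 -0.59, -0.74 to -0.43) and than in IL4Ra-/- (-0.63, -0.78 to -0.49), and IL4Ra-/- did not separate from WT (0.05, -0.08 to 0.18). IL4RaY709F was thus the lowest library for Spred1 and the highest for Dusp4. Spred2 (ENSMUSG00000045671, chromosome 11, 19924375 to 20024026, plus strand), its relative, had 88 reads in IL4RaY709F, 119 in IL4Ra-/- and 110 in WT, with all 3 intervals including 1.

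Spry2 (ENSMUSG00000022114, chromosome 14, 105891947 to 105896819, minus strand), an inhibitor that binds the ubiquitin ligase CBL, had 71 reads in IL4RaY709F, 61 in IL4Ra-/- and 55 in WT, and no interval excluded 1. Spry1 (ENSMUSG00000037211, chromosome 3, 37639947 to 37644598, plus strand) had 2 reads in IL4RaY709F, 3 in IL4Ra-/- and 3 in WT, too few for a comparison. Taking counting error alone, 4 of the 10 genes had an interval that excluded 1 in IL4RaY709F against WT, beside 31.7% of all tested genes. In IL4Ra-/- against WT 5 did, beside 40%, and between the mutants 5 did, beside 46.7%. These shares lay near the background of each comparison.

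**Figure D2:**
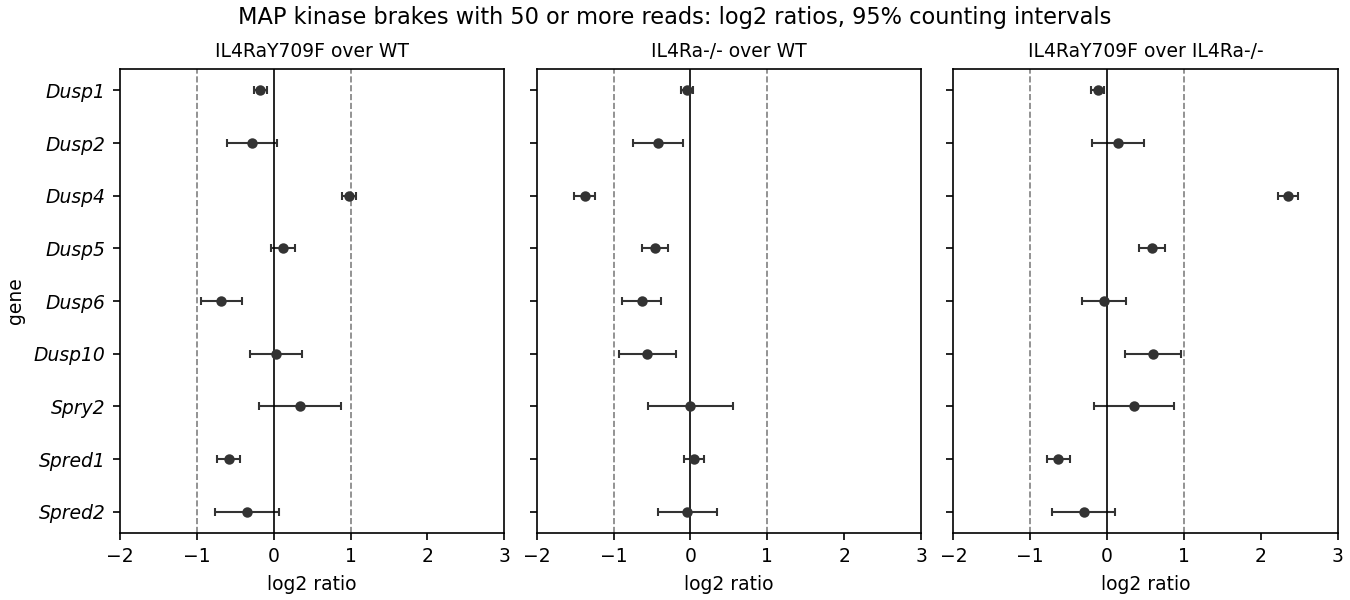
Log2 ratios (x axis) of the 9 genes with 50 or more reads, with 95% counting intervals, for IL4RaY709F over WT, IL4Ra-/- over WT and IL4RaY709F over IL4Ra-/-. Dashed lines mark a 2-fold difference, and Dusp4 (0.97, -1.37 and 2.35) is farthest from 0 in each panel.

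Other genes of the pathway were read from lists of its parts, and those reaching 50 reads in the larger library were counted. The counts stand beside the share of all tested genes that met the size rule in either direction. That share was 2.45% in IL4RaY709F over WT, 3.73% in IL4Ra-/- over WT and 8.12% between the mutants. Of 7 other MAP kinase phosphatases 0 met the size rule in any comparison, and their median log2 ratio was 0.09 in IL4RaY709F over WT, -0.10 in IL4Ra-/- over WT and 0.25 between the mutants. Ptpn7, a phosphatase of ERK and p38 in blood cells, was at -0.41 (-0.58 to -0.24) in IL4Ra-/- over WT. Of 12 other Sprouty-related and RAS brakes, 0 met the rule against WT in either mutant and 1 did between them. That 1 was Errfi1, an inhibitor of the EGF receptor, with 1120 CPM in IL4RaY709F, 511 CPM in IL4Ra-/- and 625 CPM in WT (log2 1.13 between the mutants, 1.04 to 1.23). Rasa3, which turns off RAS and RAP1, was at 83.0 CPM in IL4Ra-/- and 41.6 CPM in WT, a log2 ratio of 0.997 (0.64 to 1.36).

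Few genes of the kinase cascades met the size rule, and few of all tested genes did. The share of all tested genes was 2.45% in IL4RaY709F over WT, 3.73% in IL4Ra-/- over WT and 8.12% between the mutants. In the RAS and ERK cascade 0 of 21 genes met the rule in IL4RaY709F over WT and 0 of 22 in IL4Ra-/- over WT, with medians of 0.03 and -0.15. Between the mutants 1 of 22 was higher, the adaptor Gab2 (log2 1.11, 0.85 to 1.37), which links KIT and FcεRI to the cascade. In the p38 and JNK cascade 1 of 15 was higher in IL4RaY709F over WT, the ERK-activating kinase Map3k8 (log2 1.27, 0.57 to 2.02), with 59 reads in IL4RaY709F and 24 in WT. In IL4Ra-/- over WT 0 of 15 met the rule, 13 of them below 0 (median -0.23), beside 58.1% of all tested genes below 0 (median -0.08), and the kinase Map3k11 was at -0.77 (-1.06 to -0.49). Between the mutants 2 of 16 met it, Map3k8 (1.55) and Mapk9, which encodes JNK2 (-1.10).

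Transcripts that ERK induces included a gene graded like Dusp4. Of 20 measured in IL4RaY709F over WT, 1 was higher and 0 lower (median 0.05), beside 1.68% of all tested genes higher and 0.771% lower. The 1 higher was Phlda1, a pleckstrin-homology protein, with 659 reads in IL4RaY709F, 130 in IL4Ra-/- and 205 in WT (IL4RaY709F over WT log2 1.66, 1.43 to 1.89). In IL4Ra-/- over WT, 1 of 21 was lower, the AP-1 subunit gene Jund (-1.12, -1.25 to -0.98), with 16 of 21 below 0 and a median of -0.38, where 58.1% of all tested genes were below 0 and their median was -0.08. By the size rule 1.3% of all tested genes were lower there and 2.43% higher. Between the mutants 4 of 21 were higher and 0 lower, namely Phlda1 (2.47), Myc (1.58), Ier3 (1.21) and Jund (1.20), beside 4.62% of all tested genes higher and 3.5% lower.

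In single WT MMC9s, Dusp1 had 10 reads or more in most cells, 8 other genes did in fewer than 50% of them, and Spry1 in none. Cells with 10 reads or more were counted as detected, and shares carry exact (Clopper-Pearson) intervals. Dusp1 was detected in 65 of 80 cells (81.3%, 71 to 89.1), Spry2 in 36 (45%, 33.8 to 56.5), Dusp4 in 35 (43.8%, 32.7 to 55.3) and Spred1 in 33 (41.3%, 30.4 to 52.8). Dusp6 was detected in 29 cells (36.3%), Dusp5 in 24 (30%), Dusp2 in 23 (28.8%), Spred2 in 9 (11.3%) and Dusp10 in 8 (10%). Spry1 had no read in any cell. A count of 0 of 80 allows a share of up to 3.75% at 3 counts of the total, and its exact interval ends at 4.51%. The intervals of neighbours in this order overlapped from Spry2 downward. When each cell was thinned to 150000 reads and 1 read counted, the shares were 91.3% for Dusp1, 57.5% for Spry2, 52.5% for Spred1, 50% for Dusp4, 40% for Dusp6, 35% for Dusp2, 32.5% for Dusp5, 12.5% for Dusp10 and 11.3% for Spred2.

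Levels per cell spread widely. Dusp1 ran from 0.452 to 3539 CPM over the 80 cells, with a median of 378 and quartiles of 71.6 and 910. The 5 cells with the most Dusp1 held 23.3% of its reads, so it was spread over many cells. Dusp4 ran from 0 to 935 CPM (median 3.97), and its top 5 cells held 50.8% of the reads. Dusp6 ran from 0 to 1485 CPM (median 0.779), with 21.3% of its reads in 1 cell and 61.9% in 5. Spry2 reached 1662 CPM, Spred1 1507, Dusp2 576, Spred2 395, Dusp5 256 and Dusp10 122 in their top cells. Among detected cells the median was highest for Dusp1 (472 CPM), then Dusp2 (273 CPM) and Spred1 (162 CPM), values that are not per length.

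**Figure D3:**
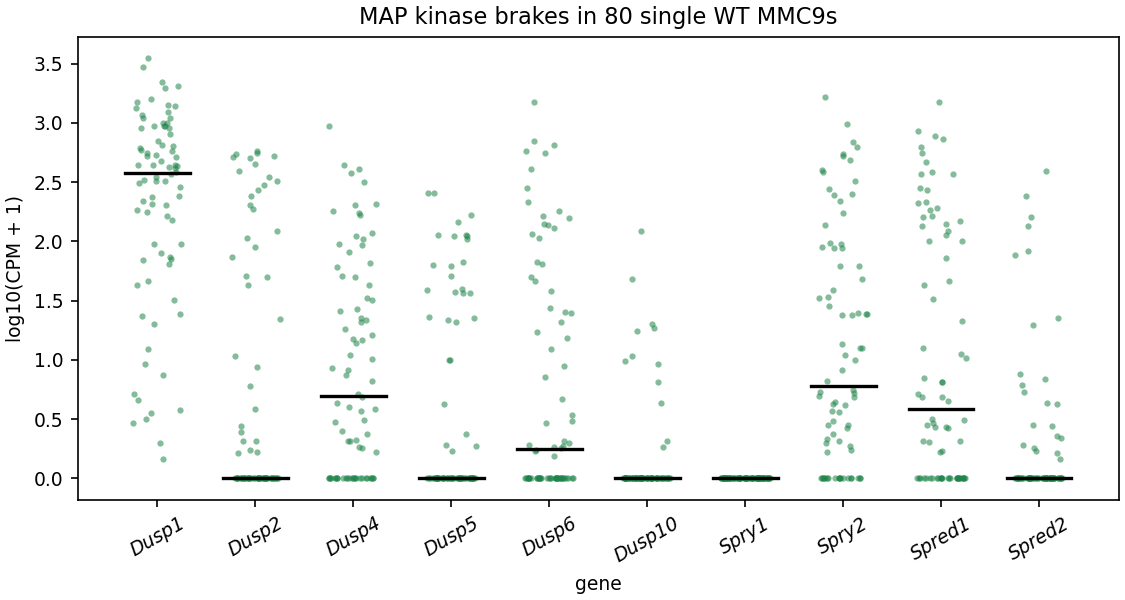
CPM of each of the 10 genes in the 80 WT cells, as log10(CPM + 1), with 1 point per cell and the median as a black line. Dusp1 has its median at 378 CPM, and the other 9 genes have medians between 0 and 5.07 CPM. Spry1 is at 0 in all 80 cells.

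A cell held a median of 3 of the 10 genes at 10 reads or more (range 0 to 7), and 5 cells held 0. That number went with sequencing depth and with the genes detected per cell (Spearman rho 0.54 and 0.71 over 80 cells), and after thinning these were 0.37 and 0.55. Across the cells, pairs of brakes had correlations near those of other gene pairs. Among the 21 pairs of the 7 genes read in at least 20 cells after thinning, rho ranged from -0.12 to 0.27 with a median of 0.05, beside a median of 0.08 over all pairs of 4354 genes, and 0 of the 21 reached 0.40, beside 0.403% of all pairs. The pair with the highest rho was Dusp5 with Dusp6, the ERK phosphatases of nucleus and cytoplasm (0.27), which shared 14 cells out of 24 and 29. Dusp4 and Dusp1 had a rho of 0.24. These cells share a sort and differ in depth, and the values are descriptions.

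The gene most like Dusp1 across cells was Fos, an immediate early AP-1 subunit (rho 0.44 over 80 cells), out of 4353 compared. Next came Ptk2b (0.43) and Rpl7a-ps5 (0.42), which are not on the list of ERK-induced transcripts. Junb, another AP-1 subunit, had a rho of 0.41 with Dusp1. Fos and Junb were the 2 of 15 ERK-induced transcripts at 0.40 or more, where 6 of all 4353 genes reached 0.40 with Dusp1. The other 6 brakes compared had none of these 15 at 0.40, and Dusp10, Spry1 and Spred2 were read in too few cells to compare. The closest to Dusp4 was Crot, a peroxisomal acyltransferase (0.45), and to Dusp6 it was Hmces (0.50), followed by Vim, which encodes vimentin (0.498). Spry2 was closest to Mrfap1 (0.47), Spred1 to the focal adhesion gene Tes (0.50), Dusp2 to the retinol dehydrogenase gene Rdh13 (0.44) and Dusp5 to the nuclease gene Snd1 (0.41). Of 4353 genes compared, 18 reached 0.40 for Dusp6 and between 2 and 7 for each of the other 6 brakes, beside 0.403% of all gene pairs. Each closest gene is thus the highest of 4353 values over 80 cells, and none was tested.

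Setting the 80 summed cells beside the WT bulk library, the brakes took different places. These sets differ in mouse model, input and number of cells, which cannot be told apart. Levels are RPKM scaled by total reads. Spry2 was at 58.5 in the cells and 11.5 in bulk, 5.11-fold higher in the cells. Its top cell held 21.5% of the Spry2 reads in the cells and its top 5 cells 55.7%, and without the top cell Spry2 was 4.07-fold higher. Dusp4 was at 21.9 in the cells and 227 in bulk, 10.4-fold lower in the cells. Dusp5 (11.8 in the cells, 110 in bulk) was 9.30-fold lower and Dusp10 (1.14 in the cells, 21 in bulk) 18.4-fold lower. A single cell held 42.1% of the Dusp10 reads in the cells, and without it Dusp10 was 31.5-fold lower. Spred1 (19.9 in the cells, 56.6 in bulk) was 2.85-fold lower and Spred2 (2.62 in the cells, 10.4 in bulk) 3.95-fold lower. Dusp1 (179 in the cells, 335 in bulk), Dusp2 (41.1 in the cells, 38.4 in bulk) and Dusp6 (29.2 in the cells, 42.6 in bulk) were within 2-fold. Of the 9 genes with 50 or more bulk reads, 1 was at least 2-fold higher in the cells, beside 11.1% of 5623 genes, and 5 were at least 2-fold lower, beside 35.4%. Per length, Spry2 was thus the second of the 10 in the cells and the eighth in WT bulk.

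**Figure D4:**
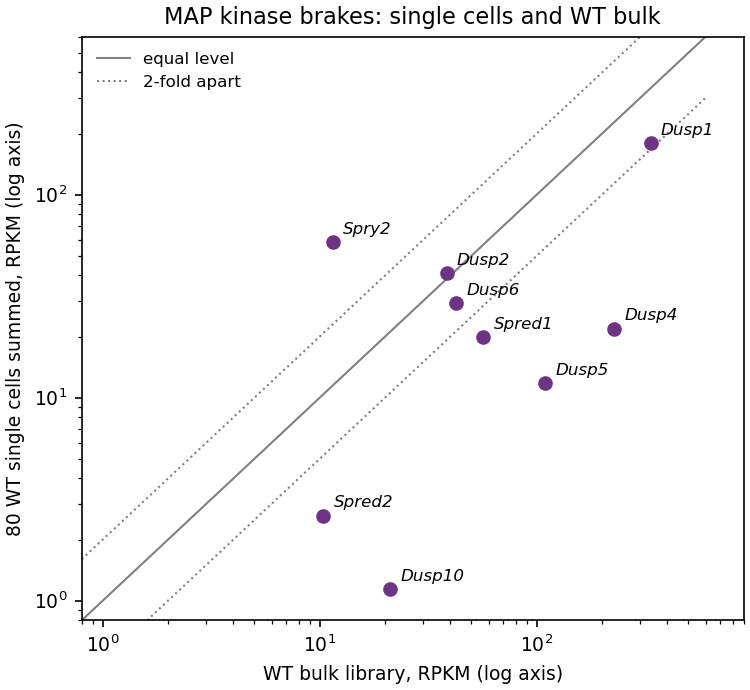
RPKM in the sum of 80 WT cells (y, log axis) against RPKM in the WT bulk library (x, log axis) for the 9 genes with reads in both, with lines of equal level and of a 2-fold difference. Spry2 (58.5 in the cells, 11.5 in bulk) lies above the lines, and Dusp4, Dusp5 and Dusp10 lie lowest relative to them.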

How the data were processed

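The submitters' processing notes name HISAT, featureCounts (Subread 2.0.0) and the builds GRCm38 and mm9, with no roles. The values the authors deposited are raw counts of reads in each gene for 3 bulk libraries and 81 cells. Of 55471 gene IDs 55144 were in GENCODE M21, and 99.4% of these had the same GRCm38 coordinates. No source used here gives the handling of reads with several matches. Reads are not independent molecules.

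Bulk counts were scaled by TMM (edgeR 4.0.16). Log2 ratios carry exact conditional binomial 95% intervals, and 3 reads stand for 0. The size rule was run on all genes, without a p-value, since each genotype has 1 library, and was tested on simulated data. RPKM uses the exon length in the files. 1 cell with 1225 gene reads was left out, no 2 kept cells were identical, and no doublet caller was run. Spearman correlations used genes with a read in at least 20 of the 80 cells after thinning (a seeded draw without replacement). Alternatives were total reads, DESeq2 1.42.0 size factors, TMM over protein-coding genes, other read minimums and folds, and other detection limits.

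Genes named are the 10 brakes, Il4ra, in each pathway list up to 4 genes past the size rule (or up to 2 with the farthest ratios), and up to 3 genes most like each brake with rho of at least 0.40. Marker lists are given as sums, and their genes past the size rule are named for ILC2 cells and basophils only. Outside this rule are genes with the highest rho with a brake within a list, also where it is below 0.40, and Junb. Markers at 0 reads, Fcer1a, Ms4a2, Ergic1 and the bulk level of Kit are also given outside it. The genes and lists were chosen with earlier results of these data known.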

Additional observations from a re-analysis of the deposited data

How the results depend on the processing

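Scaling by DESeq2 size factors, by TMM over protein-coding genes or by total reads, and read minimums of 20 or none, left Dusp4 as the 1 gene past the size rule in IL4Ra-/- against WT and between the mutants, and none in IL4RaY709F against WT. At 1.5-fold the counts were 3 in IL4RaY709F against WT (Dusp4, Dusp6, Spred1), 2 in IL4Ra-/- against WT (Dusp4, Dusp6; background 15.4%) and 3 between the mutants (Dusp4, Dusp10, Spred1; background 23%). Whether an interval includes 1 depends on the scaling. With total reads it comes to include 1 for Dusp2 in IL4Ra-/- against WT and for Dusp10 between the mutants. It comes to exclude 1 for Dusp2 and Spred2 in IL4RaY709F against WT, and for Dusp1 and Spred1 in IL4Ra-/- against WT. The same holds for Dusp6 and Spred2 between the mutants. The share of single cells depends on the limit: 1 gene was detected in at least 50% of cells at 10 reads, 5 at 1 read and 4 at 1 read after thinning, limits that also count cells with fewer reads. The 1 gene, Dusp1, remained at 20 CPM, in the 70 cells with 500000 or more reads, and without each gene's top cell (added after seeing the data). Leaving out each gene's top cell moved the ratio of cells to WT bulk by over 1.5 times for Dusp10 alone of the 9 (log2 -4.98, against -4.20 with all cells). Without thinning 0 of 21 pairs reached a rho of 0.40 as well, but the highest pair changed from Dusp5 with Dusp6 to Dusp1 with Dusp6. No paired analysis was possible because each genotype has 1 library. Depth limits Spry1, at 2 to 3 bulk reads, to no statement on its difference.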

Other observations

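Other readings of the single cells concern the brakes beside mast cell identity. Among 14 mast cell markers the one with the highest rho with Dusp4 over the 80 cells was Kit, the stem cell factor receptor (0.33). Kit was also first for Spry2 (0.23) and Dusp1 (0.29). For the other brakes compared another marker was first: Mcpt1 for Dusp2 (0.22), Cma1 for Dusp5 (0.26), Tpsb2 for Dusp6 (0.23) and Mcpt2 for Spred1 (0.23). All lay below the 0.40 used for naming the genes most like each brake. Kit itself was detected in 79 of 80 cells. Its bulk level was 2712 CPM in IL4RaY709F, 2999 CPM in IL4Ra-/- and 2962 CPM in WT. In the RAS brake list Rasa1, a GTPase-activating protein, had a rho of 0.38 with Spry2. In the p38 and JNK list the kinase gene Map2k3 had the highest rho with Dusp6 (0.32), with Dusp5 (0.26) and with Dusp1 (0.20). Other kinase genes were first for Dusp2 (Map3k1, 0.14), Dusp4 (Map2k4, 0.16), Spry2 (Map3k5, 0.27) and Spred1 (Map3k5, 0.22).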
